A study of Mus musculus with 36 samples.

Results

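Genes that bring iron into cells, store it and let it out were followed in the blood of mice 7 days after x-ray, neutron or mixed field exposure. The 8 genes were Tfrc, Slc11a2, Steap3, Slc40a1, Fth1, Ftl1, Ireb2 and Slc11a1, and they were found by name among the 31093 gene names of the array, on 13 of its 39429 probes. Each of 36 male C57BL/6J mice gave 1 blood sample by cardiac puncture and 1 Agilent single-colour array, with 6 mice in each of 6 groups. The controls were sham-irradiated, the x-ray group received 3 Gy of x-rays, and the mixed field groups received 3 Gy in all, of which neutrons made up 5, 15 or 25% (0.15, 0.45 or 0.75 Gy). The last group received 0.75 Gy from the neutron source with no x-rays added. Its label gives 100% neutrons, although the source also emits some photons, and its total dose was lower than that of the other exposures. The labels name no transgene or deletion, and globin RNA was depleted from every sample before labelling.

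Cells take up iron mainly as transferrin, which binds the transferrin receptor encoded by Tfrc and is carried into endosomes. There the reductase Steap3 reduces the iron, and the transporter Slc11a2 (DMT1) moves it into the cytosol. Surplus iron is stored in ferritin, a shell of heavy (Fth1) and light (Ftl1) chains, or leaves through ferroportin (Slc40a1), the exporter that macrophages use when they recycle old red cells. Ireb2 encodes IRP2, which binds iron-responsive elements in the messages of Tfrc, ferritin, ferroportin and some forms of Slc11a2, and slows ferritin translation while stabilising Tfrc mRNA when iron is short. Slc11a1 (NRAMP1) is a metal transporter of phagosomes in macrophages and neutrophils. In blood, developing red cells that still make hemoglobin are the cells best known for high transferrin receptor.

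The probes are 60-base oligonucleotides, named here by gene and by the position of their first base in the transcript. Several genes have more than 1 probe, and the probes of a gene did not always change alike, so the sequences inside the message are shown for those genes with the mm9 coordinates of the array annotation. All are on transcribed sequence; the annotation does not say which exon they lie in. The probe at 1228 of Tfrc lies at chr16:32620470-32620529 on the plus strand, and the annotation gives no coordinates for the one at 1732. The probe of Slc11a2 at 253 (chr15:100240516-100240575, minus strand) matches 2 RefSeq transcripts of the gene, that of Steap3 at 1792 lies at chr1:122124269-122124328 (minus strand), and that of Ftl1 at 462 at chr17:6132140-6132198 (minus strand).
Tfrc 1228: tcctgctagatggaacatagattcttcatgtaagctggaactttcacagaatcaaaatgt
Tfrc 1732: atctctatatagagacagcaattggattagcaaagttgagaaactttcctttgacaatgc
Slc11a2 253: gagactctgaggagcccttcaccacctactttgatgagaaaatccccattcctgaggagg
Steap3 1792: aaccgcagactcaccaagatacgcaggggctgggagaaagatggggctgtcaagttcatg
Ftl1 462: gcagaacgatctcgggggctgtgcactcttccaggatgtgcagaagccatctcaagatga

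The partner probes of Slc11a2, Steap3 and Ftl1 read the far end of the same messages, as does the single probe of Slc40a1. These 4 hold a polyadenylation signal, AATAAA or ATTAAA, shown in capitals within a stretch of 30 bases. For Slc11a2 the probe at 2961 (chr15:100218333-100218392) matches only 1 of the 2 RefSeq transcripts, so that it does not read every form of the message. The others lie at chr1:122123244-122123303 for Steap3, chr1:45965255-45965314 for Slc40a1 and chr17:6131686-6131745 for Ftl1, all on the minus strand.
Slc11a2 2961: catccttgttatAATAAAgttcatgcttaa
Steap3 2817: atgtgccccaggcctgccttcATTAAAttg
Slc40a1 2980: cctttcaatatccctgagaagAATAAAgaa
Ftl1 915: ggaccaagtaaaAATAAAgctttttgagac
The array annotation places both Ftl1 probes on chromosome 17, whereas RefSeq (GRCm38.p6) lists the Ftl1 gene on chromosome 7, and the mouse genome holds processed copies of Ftl1. Which copies contribute to the 2 Ftl1 signals is uncertain. The remaining probes lie at chr16:32632255-32632314 for Tfrc (position 4288, plus strand), chr19:10059485-10059544 for Fth1 (825, plus strand), chr9:54756566-54756625 for Ireb2 (2735, plus strand) and chr1:74432161-74432220 for Slc11a1 (1839, plus strand).

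Levels are given as log2 intensity above the median probe of the same array, and between 15576 and 21299 probes stood well above background on an array. Of the 13 member probes, 11 (7 genes) were uniform and well above background on at least 28 of the 36 arrays and were tested. The probe of Ireb2 and the Tfrc probe at 1732 were not. Markers fixed by cell type showed blood: Slc4a1 and Alas2 of red cells, S100a8 of neutrophils, Csf1r and Adgre1 of monocytes, Cd3e of T cells and Pf4 of platelets stood well above background on all 36 arrays. Transcripts that hepatocytes make were also present, which was seen after the fact and followed with a list of 15 (among them Alb, Hpx and Trf). Their summed log2 level had a median of 10.91 in the controls, 10.5 after x-rays, 15.3, 12.05 and 13.77 in the 5, 15 and 25% mixed fields and 9.78 after neutrons alone, and it reached 17.44 on 1 array of the 15% group. It was above 15 on 8 arrays, which were 1 of the x-ray, 3 of the 5%, 2 of the 15% and 2 of the 25% group. Where leaving these 8 arrays out changed the call of a member probe, both values are given. The arrays came from 10 slides scanned in 4 sessions. No slide or session that held controls or x-ray arrays also held arrays of the 25% or neutron-alone groups. Where one of the latter groups is compared with the controls or x-rays, session and exposure cannot be told apart.

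On levels centred on the array median, iron genes were more often higher than lower after every exposure, led by the transferrin receptor and ferritin. A call required 2 limits in limma, an unadjusted p under 0.001 and an adjusted p (Benjamini-Hochberg, over the 15649 tested probes) under 0.05. Against the controls, 5 of the 11 member probes were called higher after x-rays, 4 in the 5%, 5 in the 15% and 2 in the 25% mixed field, and 8 after neutrons alone. No member probe was called lower in any of these 5 fits, where 7, 6, 6, 6 and 9 member probes had an unadjusted p below 0.05. Of all tested probes, 14.2, 10.2, 14.1, 12.5 and 16.2% were called higher, and 32.4, 24.5, 30.6, 26.8 and 38.8% were called in either direction. The median change of the 11 member probes was 0.88, 0.68, 0.93, 0.68 and 1.05 on the log2 scale, beside -0.30, -0.15, -0.11, -0.13 and -0.20 for all tested probes. Leaving out the 8 arrays rich in hepatocyte transcripts gave 5, 6, 7 and 3 calls for x-rays and the 5, 15 and 25% mixed fields. The count over all probes is not given for these fits. With normexp background correction fewer member probes were called in every exposure. Of all tested probes, 23 were then called higher after x-rays, 0, 723 and 44 in the 5, 15 and 25% mixed fields and 2 after neutrons alone. With quantile normalization no Fth1 change was called, as given below. The 11 probes were brighter than at least 66.5% of all probes. The 99th percentile of an array rose from 10.94 in the controls to between 11.42 and 11.82 in the exposed groups (means of 6).

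**Figure D1:**
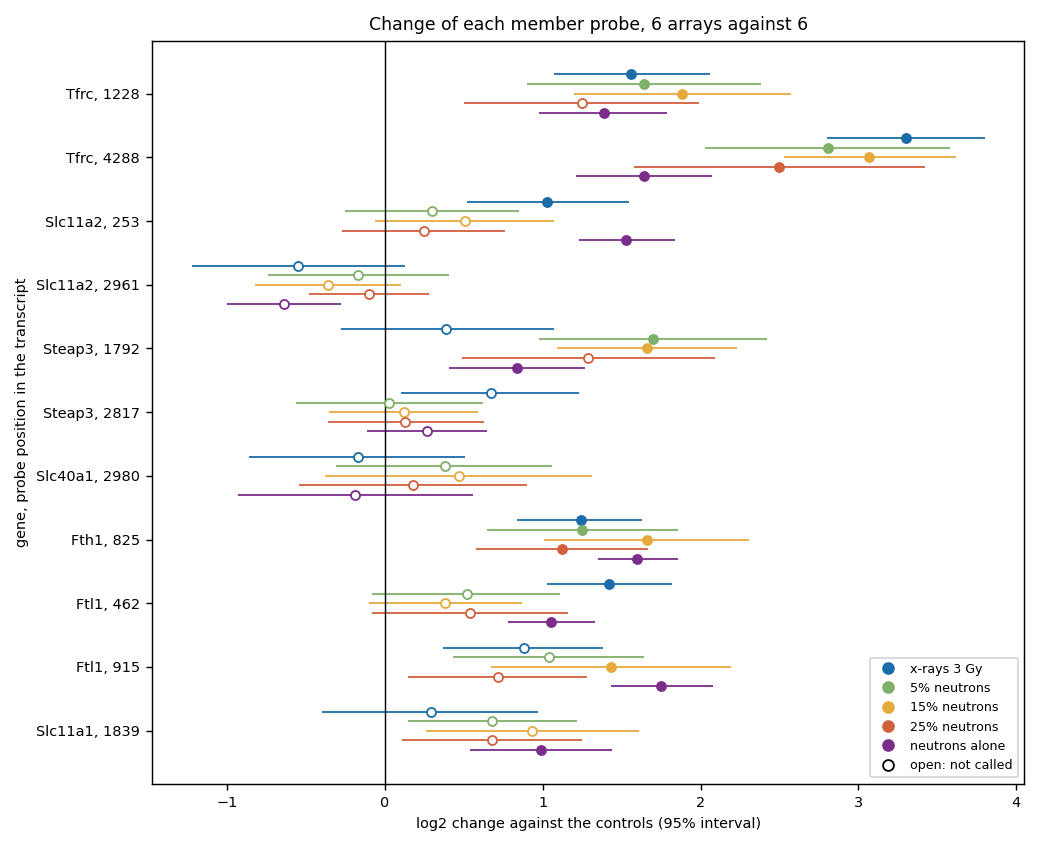
Log2 change against the controls (horizontal axis) of the 11 tested probes of 7 iron genes (vertical axis, gene and probe position), with 6 arrays against 6. Points are limma estimates with 95% intervals, coloured by exposure, filled where the probe was called and open where it was not. Both Tfrc probes and Fth1 lie to the right of 0 in all 5 exposures, whereas the Slc40a1 intervals all span 0.

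The transferrin receptor gave the largest change of the set. Its probe at 4288, which is printed on 10 spots of each array, ran from 1.74 to 2.56 in the sham-irradiated mice, with a median of 1.99. It ran from 4.62 to 5.83 with x-rays (median 5.46), from 3.24 to 5.64 in the 5% mixed field (median 5.15) and from 4.54 to 5.97 in the 15% mixed field (median 5.01). In the 25% mixed field it ran from 3.62 to 6.56 (median 4.21), and after neutrons alone from 3.22 to 4.12 (median 3.76). Every exposed array was thus above every control array. The fold changes against the controls were 9.83 after x-rays (log2 change 3.30, SE 0.22, adjusted p = 1.85e-07), 7.01, 8.42 and 5.66 in the mixed fields of rising neutron percentage (adjusted p = 2.72e-05, 4.64e-07 and 0.000198) and 3.11 after neutrons alone (log2 change 1.64, SE 0.19, adjusted p = 4.36e-06). Ordered by mean level, the groups ran from the controls through neutrons alone, the 25, 5 and 15% mixed fields to x-rays, and of these steps only that from the controls to neutrons alone was called. Of all tested probes, 15.2, 8.35, 12, 13.2 and 15% had every exposed array above every control array in the same 5 comparisons.

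The second tested Tfrc probe, at 1228, also rose, by less. It ranged from 2.47 to 3.43 in the controls (median 3.31) and had medians of 4.75 with x-rays, 5.00, 5.02 and 4.26 across the mixed fields and 4.58 after neutrons alone. Again no exposed array fell within the control range. The log2 changes were 1.56 after x-rays, 1.64 and 1.88 in the 5 and 15% mixed fields and 1.39 after neutrons alone, all called. In the 25% mixed field the change was 1.25 (SE 0.33, adjusted p = 0.00661), which missed the unadjusted limit, and without the arrays rich in hepatocyte transcripts it was called (1.63, adjusted p = 0.00069). The Tfrc probe at 1732 stood well above background on 0 control arrays, on 3 of 6 after x-rays, on 5, 5 and 3 of 6 in the mixed fields and on 0 after neutrons alone, and it was brighter than in sham-irradiated mice by at least 2.18-fold with x-rays and at least 2.57-, 2.87- and 1.41-fold in the mixed fields. These bounds set the bright group's mean against the dimmest signal well above background on each control array. That mean takes in arrays that were not well above background themselves. In the 25% mixed field the arrays at -1.21 and -1.46 lay within the control range of -2.10 to -1.04. Slide 10 held 1 array each of the controls, x-rays and the 5 and 15% mixed fields. Within it the Tfrc probe at 4288 was 2.81 higher in the 5% and 2.78 higher in the 15% array on the log2 scale. For this probe the x-ray array of the slide was at 5.83 and the control at 1.77. Each is a single array against a single array. With normexp background correction the changes of this probe were 1.64, 0.77, 1.98, 1.21 and 0.17 in the order x-rays, 5, 15 and 25% mixed field and neutrons alone, and those of x-rays and the 15% mixed field were called. At 1228 they were 0.51, -0.08, 1.27, 0.43 and -0.10 and none was called.

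**Figure D2:**
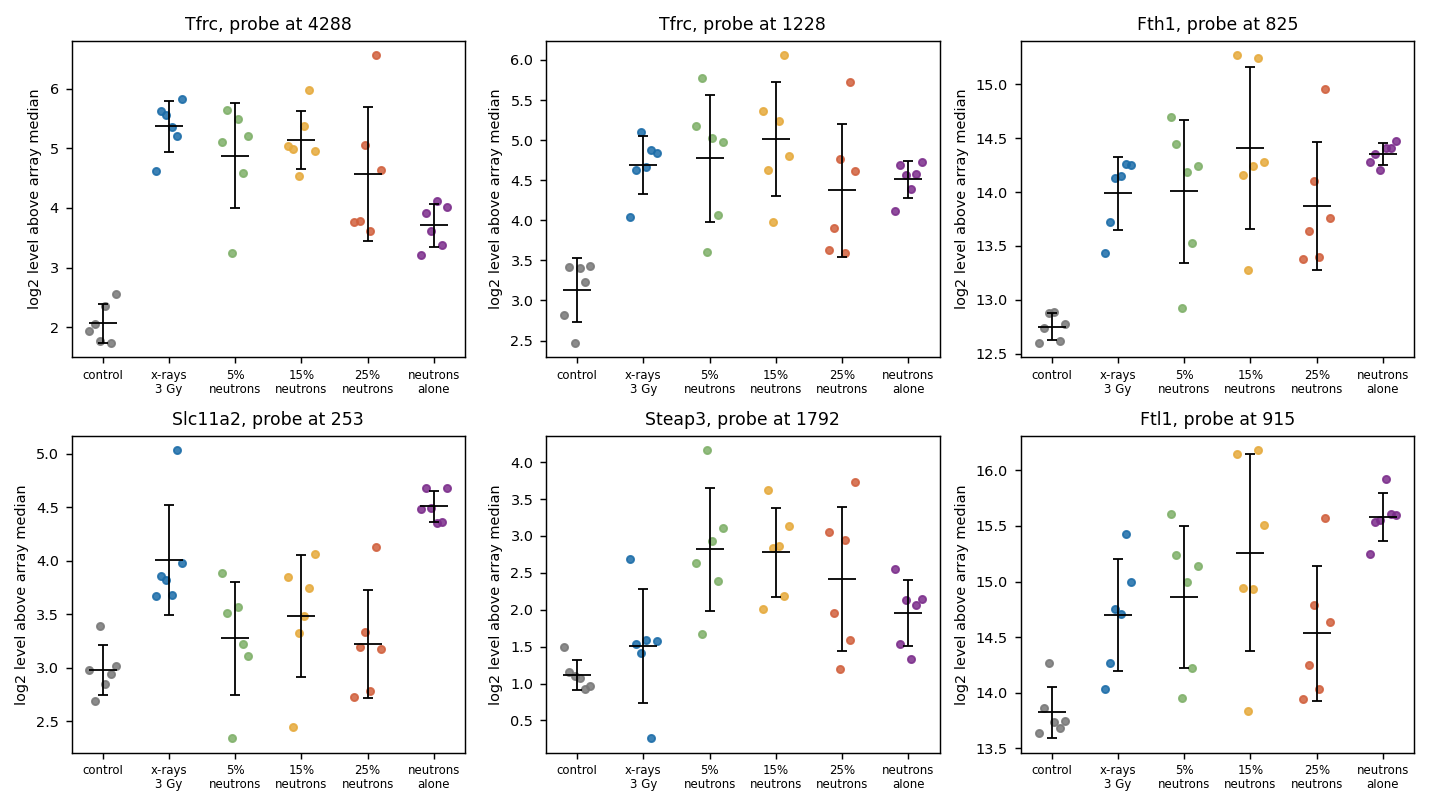
Log2 level above the array median (vertical axis) of 6 probes in each of 36 mice, by group (horizontal axis). Points are single arrays, and the bar and whiskers are the mean and SD of 6. For Tfrc and Fth1 every exposed array lies above every control array, and for Slc11a2 the neutron-alone arrays, from 4.35 to 4.68, lie above all controls.

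The 2 tested Tfrc probes did not keep the same distance from each other in every group. On each array the level of the probe at 1228 was subtracted from that at 4288, and the differences were compared between groups by an exact two-sided permutation test over 924 arrangements, with adjustment over the 40 comparisons made on 4 genes. This test was added after the values were seen. Control arrays had a mean difference of -1.06 ± 0.30 (SD, n = 6), x-ray arrays one of 0.68 ± 0.28, and it was 0.11 ± 0.35, 0.13 ± 0.31 and 0.20 ± 0.34 in the 5, 15 and 25% mixed fields. After neutrons alone it was -0.81 ± 0.31, and this group overlapped the controls. Relative to the controls the shift was 1.73 after x-rays (exact permutation p = 0.00216, the smallest possible, adjusted p = 0.00665) and 0.25 after neutrons alone (exact permutation p = 0.186, adjusted p = 0.219). Neutrons alone differed from x-rays by -1.48 and from the 25% mixed field, with its equal neutron dose, by -1.0 (exact permutation p = 0.00216 and adjusted p = 0.00665 for each). The neutron-alone arrays shared no slide or session with the x-ray or control arrays. The 2 probes of Tfrc thus changed unequally in every exposure that held x-rays, and a difference of this kind does not show which of the probes tracked the whole message.

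**Figure D3:**
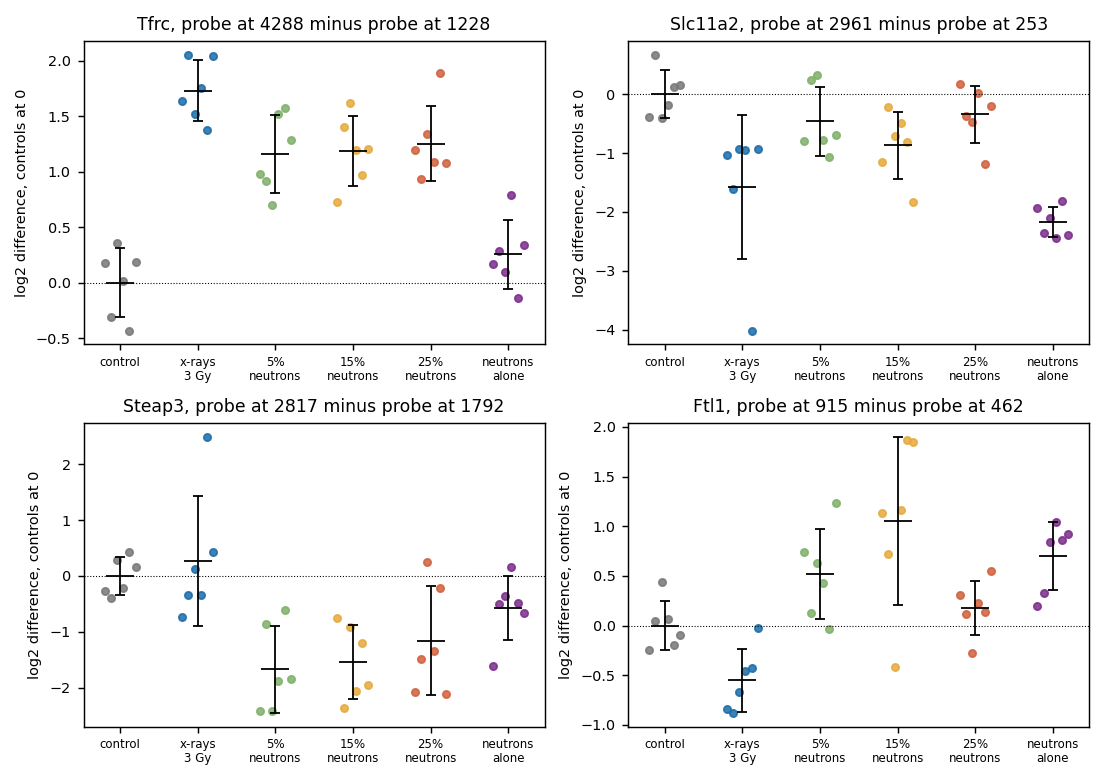
Within-array log2 difference between 2 probes of a gene (vertical axis), set to 0 at the control mean, for Tfrc, Slc11a2, Steap3 and Ftl1 by group (horizontal axis). Points are single arrays and bars with whiskers the mean and SD of 6. For Tfrc the x-ray and mixed field arrays lie above 0 and the neutron-alone arrays overlap the controls. For Slc11a2 the neutron-alone arrays lie below all controls, and 1 x-ray array lies lowest.

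Slc11a2, which carries iron out of the endosome, was higher by its probe at 253 after x-rays and after neutrons alone. Control arrays lay between 2.69 and 3.39 (median 2.96), x-ray arrays between 3.67 and 5.03 (median 3.84) and neutron-alone arrays between 4.35 and 4.68 (median 4.49). Neither of these groups overlapped the controls. The fold changes were 2.05 (log2 change 1.03, SE 0.23, adjusted p = 0.00191) and 2.90 (1.53, SE 0.14, adjusted p = 2.77e-07). The x-ray call held in 6 of the 12 fits that omit 1 array (0.83 to 1.12) and was lost without x-ray replicate 6 or control replicate 1, 2, 4, 5 or 6. In the mixed fields the medians were 3.37, 3.61 and 3.18, the ranges overlapped the controls and none of the 3 was called (log2 changes 0.30, 0.51 and 0.25). The 15% mixed field was called without its 2 arrays rich in hepatocyte transcripts (0.81, adjusted p = 0.0021). Neutrons alone stood above the 25% mixed field at equal neutron dose by 1.29 (SE 0.22, adjusted p = 0.000727), with no overlap. With slide as a block this was 0.93 and not called (adjusted p = 0.171), and the x-ray change was 0.73 and not called (adjusted p = 0.123).

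The 3′ probe of Slc11a2 moved the other way in value. At 2961 the log2 changes against the controls were -0.55, -0.17, -0.36, -0.10 and -0.64 in the order x-rays, 5, 15 and 25% mixed field and neutrons alone, and none was called. After neutrons alone all 6 arrays, from 1.24 to 1.87, were below the lowest control at 1.92, as were those of 21.3% of all tested probes. With the summed hepatocyte transcripts as a covariate this change was -0.89 and called lower (adjusted p = 7.26e-05). The within-array difference between the probes at 2961 and 253 was -0.67 ± 0.41 in the controls and -2.85 ± 0.26 after neutrons alone, a shift of -2.17 (exact permutation p = 0.00216, adjusted p = 0.00665, n = 6). After x-rays the shift was -1.58 with the same exact permutation p, but 1 of the 6 x-ray arrays lay far below the others. Shifts in the 5 and 25% mixed fields were -0.47 and -0.35 (adjusted exact permutation p = 0.168 and 0.247), and in the 15% mixed field -0.87 (adjusted exact permutation p = 0.0173).

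Steap3, the endosomal ferrireductase of red cell precursors, was higher by its probe at 1792 in the mixed fields. It lay between 0.92 and 1.5 on control arrays (median 1.09) and ran from 1.67 to 4.16 in the 5% (median 2.79) and from 2.01 to 3.62 in the 15% mixed field (median 2.85), with no overlap in either case. After x-rays it ran from 0.26 to 2.69 around a median of 1.56 and overlapped the controls. The changes were 3.25-fold in the 5% (log2 change 1.70, SE 0.32, adjusted p = 0.000691) and 3.16-fold in the 15% mixed field (1.66, SE 0.26, adjusted p = 0.000109). Neutrons alone gave 1.80-fold (0.84, adjusted p = 0.00155), while the 25% mixed field (1.29, adjusted p = 0.00799) and x-rays (0.39, adjusted p = 0.267) were not called. The neutron-alone call held in 3 of 12 fits with 1 array left out (0.73 to 0.97), those without control replicate 1 or neutron-alone replicate 2 or 4. Liver also expresses Steap3, and over the 36 arrays this probe rose with the summed hepatocyte transcripts (Pearson's r 0.51, and 0.40 after group means were removed). With that sum as a covariate the 5% change was 1.31 and no longer called (adjusted p = 0.00536), as was that after neutrons alone (0.93, adjusted p = 0.00245), and the 15% change was 1.44 and called. The 3′ probe of Steap3, at 2817, was called in none of the 5 exposures (log2 changes 0.67, 0.03, 0.12, 0.13 and 0.27 in the same order as above), and its within-array difference from the probe at 1792 shifted by -1.67 and -1.54 in the 5 and 15% mixed fields (exact permutation p = 0.00216, adjusted p = 0.00665 for both).

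Ferritin heavy chain was called higher in all 5 exposures, a result that depended on the scaling. Its probe lay between 12.60 and 12.89 on control arrays (median 12.76), and its medians were 14.14 after x-rays, 14.22, 14.26 and 13.70 in the 5, 15 and 25% mixed fields and 14.38 after neutrons alone. The lowest exposed array, in the 5% mixed field, was at 12.92, so that no exposed array reached into the control range. Spread differed between groups, with an SD of 0.10 after neutrons alone and of 0.34 to 0.75 in the other exposures. The fold changes were 2.36 with x-rays, 2.39, 3.16 and 2.18 across the mixed fields and 3.04 after neutrons alone (adjusted p = 6.86e-05, 0.00171, 0.000308, 0.00159 and 3.23e-08 by limma). Without mixed field replicate 3 or control replicate 1 or 5 the 25% change was 1.08, 1.09 or 1.10 and not called. No step in the order of the 6 groups was called apart from that between the controls and the lowest exposure, the 25% mixed field. The Fth1 signal is brighter than 99.9% of all probes, and the 99th percentile of an array moved with exposure, from 10.94 ± 0.17 above the array median in the controls to between 11.42 and 11.82 in the exposed groups (means of 6). Quantile normalization, which makes that upper end equal, reduced the Fth1 changes to 0.40, 0.42, 0.48, 0.47 and 0.34, and none was called. With normexp background correction they were 0.35, -0.84, 1.47, 0.45 and -0.12, and again none was called. Within slide 10, Fth1 was 0.65 higher in the 5% and 0.41 higher in the 15% array than in the control at 12.88, and the x-ray array was at 14.25.

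Ferritin light chain changed less evenly, and its 2 probes disagreed. The probe at 462 lay between 12.41 and 12.62 on control arrays and ran from 13.60 to 14.59 after x-rays and from 13.41 to 13.94 after neutrons alone. These exposures did not overlap the controls, and they were called at 2.68-fold (log2 change 1.42, adjusted p = 2.08e-05) and 2.08-fold (1.05, adjusted p = 4.84e-06). The mixed field changes of 0.52, 0.38 and 0.54 were not called, and without the arrays rich in hepatocyte transcripts that of the 5% mixed field was 1.03 and called. At 915 the calls were the 15% mixed field (1.43, adjusted p = 0.00275) and neutrons alone (1.75, adjusted p = 1.42e-07), with 0.88, 1.04 and 0.72 for x-rays, the 5% and the 25% mixed field, of which the 5% value was called (1.46) without the arrays rich in hepatocyte transcripts. The 15% call held in 3 of 12 fits with 1 array left out (1.25 to 1.72), those without control replicate 3 or mixed field replicate 2 or 3. This probe was saturated on 2 arrays of the 15%, 5 of the 25% and 5 of the neutron-alone group, where its value is a lower bound, which the changes and probe differences of these groups inherit. The difference between the 2 Ftl1 probes shifted by -0.55 after x-rays and by 0.52, 1.05, 0.18 and 0.70 in the other exposures (adjusted exact permutation p = 0.0173, 0.0464, 0.0332, 0.266 and 0.0144). After quantile normalization the probe at 462 was still called after x-rays (0.67), with -0.30, -0.69, -0.15 and 0.02 in the other exposures, and the probe at 915 was called in none.

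Ferroportin showed no called change. The Slc40a1 probe had medians of 4.26 in the controls, 4.10 with x-rays, 4.61, 5.01 and 4.38 across the mixed fields and 4.21 after neutrons alone. The control arrays alone spanned 3.46 to 5.73, which took in every exposed array but 1, a neutron-alone array at 3.36. The 95% intervals of the log2 change reached from -0.86 to 0.51 after x-rays, from -0.31 to 1.06, -0.38 to 1.31 and -0.54 to 0.90 in the mixed fields and from -0.93 to 0.56 after neutrons alone, so that changes of more than 1.31 in either direction lay outside all 5.

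Ireb2 was too dim to compare. Its probe stood well above background on 2 control arrays, 1 array of the 5% and 1 of the 25% mixed field. It did so on no other array, and no fold is given. Slc11a1 was measured on every array, with medians of 5.02 in the controls, 5.52 with x-rays, 5.86, 5.85 and 5.75 across the mixed fields and 6.07 after neutrons alone. It was called after neutrons alone only (1.99-fold, log2 change 0.99, SE 0.20, adjusted p = 0.000617), where 5 of 6 arrays were above all controls. The x-ray and mixed field changes were 0.29, 0.68, 0.93 and 0.68, and without its arrays rich in hepatocyte transcripts the 15% mixed field was called (1.21, adjusted p = 0.0019). With the hepatocyte sum as a covariate the change after neutrons alone was 0.75 and not called (adjusted p = 0.00536). Neutrons alone and x-rays did not differ by a called amount (0.71, 95% interval 0.02 to 1.39, adjusted p = 0.0917).

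Among the exposures themselves few iron gene differences were called. Against x-rays, limma called 0 of 11 member probes in each of the 5, 15 and 25% mixed fields, where 4, 2 and 2 had an unadjusted p below 0.05, and 0, 4.72 and 2.43% of all tested probes were called. After neutrons alone, 1 member probe was called against x-rays, beside 14.9% of all tested probes. It was Tfrc at 4288, which was 3.16-fold lower (log2 change -1.66, SE 0.23, adjusted p = 0.000151), with all 6 neutron-alone arrays below all x-ray arrays. In that comparison 7.49% of tested probes were called lower and 7.63% were separated in that way. The total dose of these groups differed, and no slide or session held both, so that session and exposure cannot be told apart. Against the 25% mixed field, which carried the same neutron dose and more x-rays, 2 member probes were called, Slc11a2 at 253 as given above and Ftl1 at 915 (1.04, adjusted p = 0.00789), both higher in value, beside 11.9% of all tested probes in either direction and 4.28% higher. For Slc11a2 every neutron-alone array was above every 25% array, as for 3.17% of tested probes. The Ftl1 probe was saturated on 5 of 6 arrays of either group, so that 1.04 does not measure the size or the direction of a difference in its RNA. Without the 25% arrays rich in hepatocyte transcripts it was 0.76 and not called (adjusted p = 0.035), with slide as a block 0.29 and not called (adjusted p = 0.738), and with 1 array left out it was called only without mixed field replicate 5 (1 of 12 fits, 0.92 to 1.25). The comparisons share their control or x-ray arrays, so their counts are not independent of each other.

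Calls for other iron genes and for cell markers rest on the median-centred levels alone, and no alternative processing was applied to these lists. With normexp background correction 0 of all tested probes were called higher in the 5% mixed field and 2 after neutrons alone. Other genes of iron handling were read from a list of 56, of which 54 were on the array and 35 were tested by their brightest probe. Of these 35, 14 were called higher and 1 lower after x-rays, 13 and 1 in the 5%, 15 and 1 in the 15% and 11 and 2 in the 25% mixed field, and 13 and 2 after neutrons alone. Over all tested probes, 14.2, 10.2, 14.1, 12.5 and 16.2% were called higher in these comparisons. In either direction 32.4, 24.5, 30.6, 26.8 and 38.8% were called, the rest of these being lower. The median changes of the 35 were 0.81, 0.88, 1.08, 0.75 and 0.33. Mitochondrial iron and iron-sulphur cluster genes made up the largest share, with 9, 7, 8, 7 and 5 of 14 called higher. Called in every exposure were Slc25a37 (mitoferrin 1, which brings iron into the mitochondria of red cell precursors; log2 changes 1.84, 1.66, 1.93, 1.49 and 2.29), Glrx5 (a glutaredoxin of iron-sulphur cluster assembly; 2.12, 2.35, 2.99, 2.25 and 2.53) and Bola3 (a partner in cluster transfer; 1.56, 1.68, 2.07, 1.72 and 2.23). Slc25a28, the mitoferrin of other tissues, was called lower in every exposure (-1.49, -1.18, -1.31, -1.16 and -0.88).

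Genes of heme handling and iron import were fewer. Blvrb, a biliverdin and flavin reductase abundant in red cells, was called higher throughout, with its largest log2 change of 3.10 in the 15% mixed field. Slc48a1 (HRG1), which moves heme out of the phagosome, was also called throughout (1.73, 1.39, 1.64, 1.17 and 1.91). Ltf, encoding the neutrophil granule protein lactoferrin, was called higher in every exposure. Its probe stood well above background on only 1 of 6 control arrays and on 5 or 6 of 6 in each exposure, which is how it passed the filter, and no size is given. Of the transferrin cycle, Snx3, which returns the receptor from endosomes, changed by up to 1.66 after neutrons alone and was called in all exposures but the 5% mixed field. Among iron sensors and ferritin partners, Ncoa4, the receptor for ferritin breakdown, was called higher after x-rays (1.29) and neutrons alone (1.18). In the 5, 15 and 25% mixed fields its changes of 0.59, 0.39 and 0.34 were not called. Aco1 (IRP1) was called higher in the 5 and 15% mixed fields and after neutrons alone, but stood well above background on only 3 of 6 control arrays, and no size is given. None of the 10 genes of export and the hepcidin axis, which act mainly in liver and gut, passed the background filter. Trf and Hpx, plasma protein genes of hepatocytes, were called in no exposure. Trf had log2 changes of up to 2.59 in the mixed fields and of -1.14 after neutrons alone. Hpx went down to -2.04 in the controls and to -1.83 after neutrons alone. That is within the control range of the Tfrc probe at 1732 (-2.10 to -1.04), which was not well above background there, and no size is given.

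**Figure D4:**
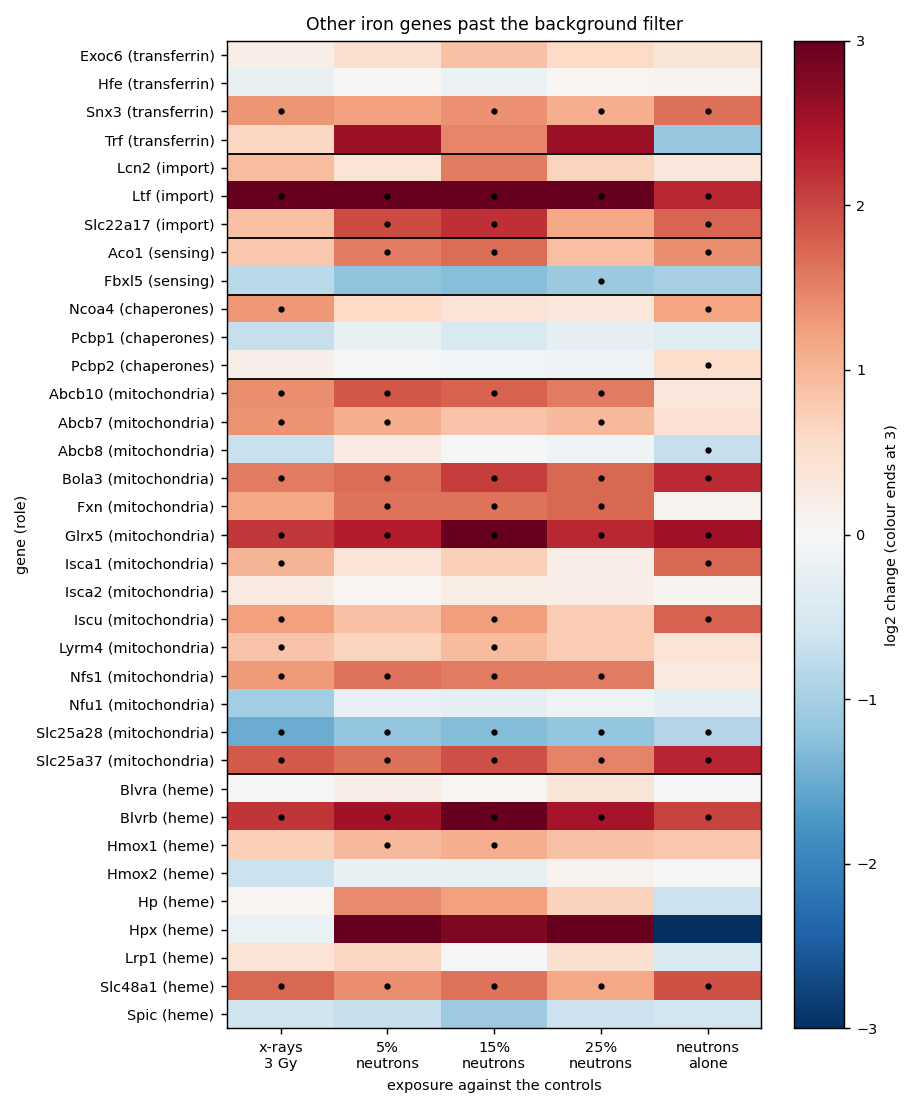
Log2 change against the controls (colour) of the 35 tested genes of a list of other iron genes (vertical axis, with the role of each) in 5 exposures (horizontal axis). Dots mark called changes and lines separate the roles. Glrx5, Slc25a37, Bola3, Blvrb, Slc48a1 and Ltf are called higher in all 5 columns, and Slc25a28 is called lower.

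Red cell markers moved with the transferrin receptor and ferritin. Of 14 such markers, 11 were called higher with x-rays, 11 in each mixed field and 14 after neutrons alone, with median log2 changes of 2.72, 2.26, 2.49, 2.25 and 1.90, beside the 10.2 to 16.2% of all tested probes that were called higher. Their summed log2 level without the 2 globins lay between 14.38 and 14.79 on control arrays. It ran from 15.08 to 16.37 after x-rays and from 15.60 to 16.32 after neutrons alone. In the mixed fields it ran from 14.28 to 16.54 and overlapped the controls. The sum lay close to Alas2 (control medians 14.53 and 14.36), whereas Slc4a1 was dimmer (10.97). Slc4a1 ran from 10.35 to 11.22 in the controls and from 11.75 up in the exposed groups, with no overlap in any exposure. Between 8.35 and 15.2% of all tested probes were separated in this way. The marker calls rest on the median-centred levels alone, with no alternative applied. Over the 36 arrays that sum had a Pearson's r of 0.94 with Fth1, 0.95 with Ftl1 at 915, 0.86 with Tfrc at 1228, 0.79 with Slc11a2 at 253 and 0.69 with Tfrc at 4288, and 0.95, 0.96, 0.86, 0.76 and 0.79 after group means were removed. For Ftl1 at 462 it was 0.74 (0.74 within groups). The remaining probes had values near or below 0. Steap3 at 1792 had -0.15 (-0.70 within groups), Steap3 at 2817 had 0.06 (-0.19), Slc11a2 at 2961 had -0.26 (0.09), Slc40a1 had -0.14 (-0.18) and Slc11a1 had 0.17 (-0.22). These are descriptions over arrays that share a scaling. The 99th percentile of an array had higher values than the sum with Tfrc, 0.90 at 1228 and 0.81 at 4288. Its values were lower with Fth1 (0.87), Ftl1 at 915 (0.75), Ftl1 at 462 (0.51) and Slc11a2 at 253 (0.40). After group means were removed they were 0.85, 0.74, 0.88, 0.80, 0.62 and 0.55, all below those of the sum. In whole blood, more cells of a type and more of a message per cell cannot be told apart, and the part of red cells in the iron gene results was not tested.

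White cell and platelet markers were counted in the same way. Of all tested probes, 10.2 to 16.2% were called higher and 24.5 to 38.8% in either direction, the rest of the latter being called lower. Of 9 tested monocyte and macrophage markers, 2 were called higher, both after neutrons alone, and 1 was called lower, in the 25% mixed field. All 5 tested B cell markers were called lower in every exposure, and of 7 tested T cell markers 3, 3, 3, 1 and 0 were. The 5 tested NK cell markers had median log2 changes of -0.03, -0.63, -0.28, 0.22 and -0.33, with no call. Ptprc, the pan-leukocyte marker CD45, had log2 changes of -0.72, -1.09, -0.96, -0.89 and -0.69, of which that of the 25% mixed field was called. Of 10 tested neutrophil markers, 3 were called higher in every exposure and 1 lower in the 15 and 25% mixed fields and after neutrons alone, and their summed level had medians of 12.77 in the controls and 12.28 to 13.62 in the exposed groups, with overlap throughout. Platelet markers were called higher for 0, 0, 2, 3 and 2 of 6, and their summed level in the 25% mixed field, from 13.77 to 14.89, lay above the controls at 12.32 to 13.24. The part of these cells was not tested either.

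**Figure D5:**
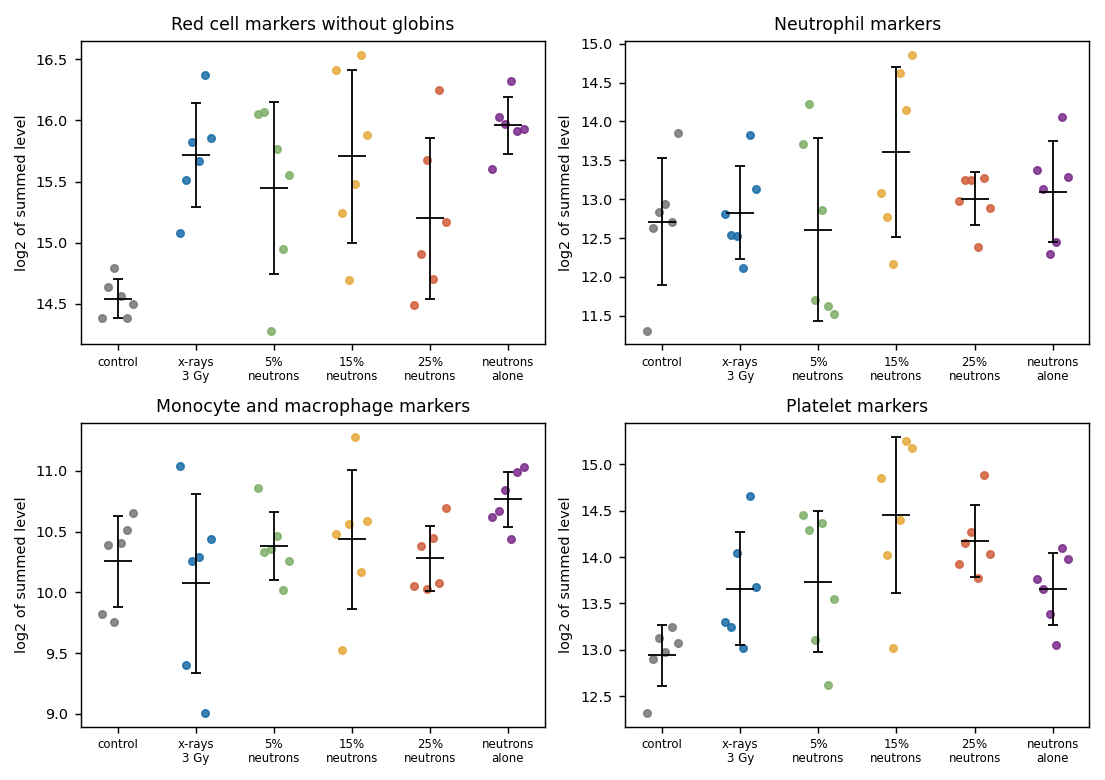
Log2 of the summed level of cell type markers (vertical axis) on each of 36 arrays, by group (horizontal axis), for red cells without globins, neutrophils, monocytes and macrophages, and platelets. Points are single arrays and bars with whiskers the mean and SD of 6. The red cell sums of the x-ray and neutron-alone arrays, from 15.08 up, lie above the control range, the platelet sums of the 25% mixed field do so too, and the neutrophil and monocyte sums overlap the controls in every group.

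The member genes also differed in which other genes they followed over the 36 arrays, by the highest Pearson's r among 12243 other named genes (brightest probe of each, all groups pooled). Fth1 ran closest to Rpl41, a ribosomal protein gene (0.984), Fis1 (0.979) and Tmem80 (0.968). Ftl1 by its probe at 915 ran closest to the globins Hba-a2 (0.990) and Hbb-bt (0.986) and to Rn18s, the 18S ribosomal RNA (0.984). That probe was saturated on 2 arrays of the 15%, 5 of the 25% and 5 of the neutron-alone group. Those capped arrays are part of these values and of every other r of the probe. Rn18s, which is no iron gene, had log2 changes of 0.86, 0.95, 1.26, 0.62 and 1.53 against the controls, and of -0.14, 0.06, 0.08, 0.10 and 0.03 after quantile normalization. Tfrc by its probe at 1228 was nearest to Frmd8os (0.943), Fam213a (0.942) and Fbxo7 (0.941), the last a ubiquitin ligase subunit abundant in red cell precursors. For Slc11a2 they were 5330417C22Rik (0.957), Rtn4rl2 (0.951) and Gigyf1 (0.943). Slc11a1 followed Tnfsf13os (0.902), Cst3 (0.894) and Csf2ra (0.892), of which Csf2ra encodes the GM-CSF receptor chain of myeloid cells. Slc40a1 followed Sfxn5 (0.895), Msrb1 (0.809) and Agap1 (0.798), and Steap3 by its probe at 2817 had the weakest neighbours, Srm (0.784), Serpina11 (0.773) and Fuom (0.760). Among the members themselves the highest values were between Fth1 and Ftl1 at 915 (0.940) and between Fth1 and Tfrc at 1228 (0.910).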

How the data were processed

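RNA from 36 mouse blood samples was hybridised to Agilent arrays, 1 array a mouse. The authors deposited scanner intensity files from Agilent Feature Extraction 12.0.2, per the file headers, with background-corrected linear intensity (gProcessedSignal) and quality flags coded as other values, and a table of normalized log2 values for 14216 non-control probes, which the authors had filtered and which was used only as an alternative. Per the labels each array is a separate mouse. Intensities were log2-transformed and averaged over the uniform spots of a probe, and the median of the 39429 probes was subtracted on every array (R 4.3.3 and limma 3.58.1). Probes uniform and well above background on more than 75% of arrays were kept (15649). Each comparison used limma on its 12 arrays, with Benjamini-Hochberg adjustment over the tested probes and a call at p below 0.001 and adjusted p below 0.05. The study's filter on fold change and its single probe per gene were alternatives, since every member probe is reported here. The script was tested on simulated data. Intensities give no read depth, and the number of arrays limits the precision.

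All probes of the 8 members are given in every comparison. Other iron genes were named if called in all 5 exposures or if they had the largest change of their role, and 3 similar genes were named for each member. Members, gene lists and comparisons were chosen with earlier results of these data known. The list of hepatocyte transcripts, the tests between probes of a gene, a weaker background flag and the fits without the fourth scan session or the arrays rich in hepatocyte transcripts were added after the data were seen. Replicate numbers did not mark shared animals, and arrays with the same number did not deviate together. Plots came from matplotlib 3.10.9 under Python 3.11.15.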

Additional observations from a re-analysis of the deposited data

Results flagged for a closer look

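In 3 of the 66 sets of 6 arrays examined, 1 array stood apart from the other 5 by Dixon's criterion on gap over range, and chance alone gives about 1 in 20. The Slc11a2 probe at 253 was at 5.03 on x-ray replicate 5, against 3.98 on the nearest x-ray array. The Ftl1 probe at 462 was at 12.41 on control replicate 4 (nearest 12.55), and the Ftl1 probe at 915 was at 14.27 on control replicate 3 (nearest 13.86).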

How the results depend on the processing

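For the 11 probes in 10 comparisons the alternatives gave 2992 values. Of these, 2691 kept their direction and side of the threshold, 53 gained and 107 lost a call, 9 called values turned, and 132 values that were not called under either setting changed sign. Counts of called member probes against the controls, in the order x-rays, 5, 15 and 25% mixed field and neutrons alone (5, 4, 5, 2 and 8), were 1, 0, 1, 0 and 0 with normexp background correction, where the median change of all probes was -0.64, -0.97, -0.19, -0.49 and -0.97 in place of -0.30, -0.15, -0.11, -0.13 and -0.20. Of all tested probes, 23, 0, 723, 44 and 2 were then called higher and 532, 450, 289, 533 and 519 lower. Under normexp the called values that turned were Fth1 (-0.84) and Tfrc at 1228 (-0.08) in the 5% mixed field, and after neutrons alone Slc11a1 (-0.54), Fth1 (-0.12), Ftl1 at 462 (-0.71) and Tfrc at 1228 (-0.10). The cause was not tested. The deposited table, with 6 of the member probes, gave 3, 2, 2, 1 and 3 calls, and Ftl1 at 462 at -0.07 after neutrons alone. Of all probes in that table, 1520, 984, 1349, 1166 and 1535 were called higher and 2747, 3104, 3119, 2007 and 4643 lower. Quantile normalization gave 3 calls in the 15% and 1 in the 25% mixed field and 5 after neutrons alone. In these comparisons 2042, 1844 and 3027 of all tested probes were called higher and 3176, 3050 and 3675 lower. A slide block, which for the 5 and 15% mixed fields rests on 1 array a group, left 0 and 0 calls, and a scan session block 0 and 1, with Ftl1 at 915 at -0.43 in the 15% mixed field under either. The fold filter with the brightest probe per gene gave 3 calls after x-rays and 1 in the 25% mixed field, and adjusted p alone gave 6 in the 25% mixed field. With the fold filter, 1726 and 1520 of all probes kept were called higher in these 2 exposures, and 2103 and 1671 lower. For the other settings the count over all probes is not given. Against x-rays, the 15% mixed field had 1 call with quantile normalization, the deposited table or a single model and 2 with adjusted p alone, and neutrons alone (1 call) had 2, 2, 0, 0 and 2 with quantile normalization, the deposited table, normexp, the fold filter and adjusted p alone. Against the 25% mixed field, the 2 calls after neutrons alone were 0 with normexp or a slide block and 1 with 75th percentile centring, centring on probes above background on all arrays, quantile normalization, no background filter, the fold filter, the deposited table, the weaker background flag, a single model, the replicate block, or without the arrays rich in hepatocyte transcripts.

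Replicate numbers did not pair the arrays (mean r 0.0518 over 90 same-numbered pairs, lowest -0.754, and -0.00886 over 450 other pairs). With the replicate block the 25% mixed field had 4 calls against the controls and 1 against x-rays.

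Leaving out 1 array at a time gave 4 to 6 calls after x-rays, 4 to 5 in the 5 and 15% mixed fields, 1 to 3 in the 25% mixed field and 7 to 9 after neutrons alone. Against x-rays the ranges were 0 to 0, 0 to 1, 0 to 0 and 1 to 3, and 1 to 3 between neutrons alone and the 25% mixed field. The 25% count fell to 1 without control replicate 1 or 5, the 15% count against x-rays became 1 without mixed field replicate 1 or x-ray replicate 1, and neutrons alone against x-rays gave 3 without x-ray replicate 5. Tfrc at 4288 kept its call against the controls in 12 of 12 such fits for each exposure.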

Other observations

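Alb, the main secreted protein of hepatocytes, spanned a wide range among blood samples of 1 group. Its log2 level ran from -2.16 to 11.32 in the controls, from -2.08 to 12.52 after x-rays, from -1.43 to 14.22, 6.37 to 15.13 and 9.97 to 14.31 in the 5, 15 and 25% mixed fields and from -1.96 to 6.82 after neutrons alone. Trf and Hpx varied likewise, with Hpx between -2.04 and 8.93 in the controls. Of the iron gene probes, Steap3 at 1792 rose with the summed hepatocyte transcripts after group means were removed (r 0.40), and Tfrc at 1228, Fth1, Ftl1 at 915 and Slc11a2 at 253 fell (r -0.57, -0.55, -0.57 and -0.58, over 36 arrays).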
